A study of Rattus norvegicus with 172 samples.

Results

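Granule cells of the dentate gyrus, the gate of the hippocampus, were compared between 6 rats taken at day 10 after kainate-induced status epilepticus (SE, continuous seizure activity) and 6 controls of the same laboratory. These 12 rats were chosen by their labels among 164 rats (172 arrays) that cover 4 rat models of epilepsy in 7 laboratories and 28 groups. Affymetrix arrays measured RNA of granule cells cut by laser from hippocampal sections. The values are MAS5 signal intensities, analysed as log2(signal + 16), and all levels below are on that scale.

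All rats were male Sprague-Dawley and weighed 175 to 250 g. In the laboratory of this comparison, called A, the rats were from Charles River in Raleigh. Kainate was injected intraperitoneally at 5 mg/kg every hour until SE began, and the controls got saline on the same schedule. SE set in after 5 to 6 injections and was left to end by itself after 6 to 8 h. Laboratory A also took 6 rats at day 1 and 6 at day 3. Laboratory B used rats from Harlan in the Netherlands and a first dose of 7.5 mg/kg before the hourly 5 mg/kg. It stopped seizures with pentobarbital 90 min after the onset of SE. Its own 6 controls and 6 day 10 rats are compared here. The day 1 and day 3 rats of laboratory B only help to set the spread in the fit of 48 rats. RNA of several laser caps was pooled within each rat, so 1 array stands for 1 rat. The labels do not give seizures seen after SE, so whether a rat had a seizure shortly before it was killed was not tested.

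Kainate activates a class of glutamate receptors and drives recurrent firing in the hippocampus. In rodents the SE that follows is known to kill hilar mossy cells and some interneurons, to spur sprouting of granule cell axons (the mossy fibres), and to be followed by spontaneous seizures after a delay. Granule cells are a filter for activity that enters the hippocampus, and seizures are known to change their neuropeptides, growth factors and ion channels. Day 10 falls into the time between the first insult and chronic epilepsy.

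At day 10 the protease Prss23, the neuropeptide precursors Cartpt, Trh, Tac3 and Npy and the collagen cross-linker Lox were among the largest rises. The growth factors Gdf10 and Ntf3 and the activin antagonist Fst were the 3 largest falls. In all, 413 of 10821 genes tested (3.82%) passed a Benjamini-Hochberg adjusted p of 0.05 in limma, at any fold. Of these, 192 genes were higher (1.77%) and 221 were lower (2.04%). At least 2-fold changes numbered 40 among the higher genes and 45 among the lower ones. The median change over all genes was 0.00. The count of calls rested in part on the mildest rat: without day 10 rat 5 it was 696. It was 210 without day 10 rats 3 and 4, which resembled the other rats of their group least, and 124 with only these 12 rats in the fit. Laboratory A rats of the other times helped to set the spread in the main fit. With only the 12 rats, many named genes lost their calls. Among them were Trh, Tac3, Npy, Ntf3, Fosb, Ptgs2 and Bdnf (limma adjusted p = 0.0705 to 0.223).

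Prss23, a secreted serine protease, had the largest rise. Its level was 5.31 to 6.90 in controls (median 6.18) and 8.35 to 10.30 at day 10 (median 9.12), so the groups were far apart. The rise was 3.05 ± 0.25 (standard error of the fit, n = 6 against 6), or 8.28-fold, with an adjusted p of 1.34e-07 in limma. Standard errors given for laboratory A come from the main fit, which pools the spread of its 24 rats over all times. They are not errors of the compared groups alone, and can be too small for genes that varied widely at day 10.

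Neuropeptides are stored in dense-core vesicles and released by strong firing. This and the other gene lists below were chosen with earlier results of these data known. Their shares of calls are therefore descriptions and do not test the lists. Of 19 precursors and granins tested, 5 rose, 2 fell and 12 did not pass (36.8% called, against 3.82% of all genes). The median change of the list was 0.19. That median was 0.39 without control rat 1 and 0.32 without day 10 rat 5. Without day 10 rats 3 and 4, 2 members rose and 0 fell. Cartpt, the precursor of the CART peptides, ranged from 5.85 to 6.92 in controls (median 6.11) and from 7.37 to 10.54 at day 10 (median 8.74). All 6 day 10 rats lay above all controls, and the rise was 2.67 ± 0.44 (6.38-fold, limma adjusted p = 0.000985). The highest Cartpt level was in rat 5, which was the highest in 6 of the 192 higher genes, and the lowest was in rat 4.

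The promoter of Cartpt is shown because it holds the cyclic AMP response element (CRE), the letters TGACGTCA, to which the activity-regulated factor CREB is known to bind. Promoters came from RefSeq (build GRCr8), which held 9020 of the 10821 genes tested, and the 250 bases before the start site were searched. The letters are the same on both strands. Each stretch runs 5′ to 3′ on the strand of its gene, with the motif in capitals. Cartpt is at chr2:32991344-32991403 on the minus strand and Plk2, an activity-regulated kinase that also rose, is at chr2:43702444-43702503 on the plus strand. For Trh, at chr4:126301806-126301862 on the minus strand, only the 5-letter core CGTCA was found (TGACG on the other strand).
Cartpt: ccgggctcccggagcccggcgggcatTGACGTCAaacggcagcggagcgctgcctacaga
Plk2: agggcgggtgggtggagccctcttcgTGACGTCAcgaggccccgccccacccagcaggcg
Trh: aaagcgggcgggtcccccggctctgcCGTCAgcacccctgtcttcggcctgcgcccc
The full element was present in 6 of the 152 higher genes with a promoter (3.95%), in 2 of the 192 lower ones (1.04%) and in 280 of all 9020 (3.10%). The 5-letter core was present in 32 of 152 higher genes (21.1%), in 40 of 192 lower ones (20.8%) and in 29.6% of all, and every full element also counts as a core. Over all 33469 promoters in the table the shares were 1.59% and 18.2%. A match is a description of the letters and not a site in use.

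Plk2 rose by 1.17 ± 0.24 (limma adjusted p = 0.00571), above all controls in 4 of 6 rats. Trh encodes thyrotropin-releasing hormone, a tripeptide that damps excitability. It measured 5.49 to 6.82 in controls (median 6.11) and 6.69 to 10.95 at day 10 (median 8.31). The rise was 2.34 ± 0.45 (limma adjusted p = 0.00315), and 5 of 6 rats were above all controls. With only the 12 rats in the fit Trh did not pass (limma adjusted p = 0.0705). Rats 3 and 6 had the highest Trh, and rat 5 lay within the control range. Its receptor gene Trhr fell by 0.91 ± 0.24 (limma adjusted p = 0.0279), although only 2 rats were below all controls. The Trhr call was lost without control rat 4 or 6 and without day 10 rat 1 or 3 (adjusted p = 0.0509 to 0.0756).

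Tac3, the precursor of neurokinin B, varied widely at day 10. The controls lay between 5.46 and 6.28, while the day 10 rats ran from 5.33 in rat 5 to 9.88 in rat 6. The rise of 2.17 ± 0.52 (limma adjusted p = 0.0161) came from 5 rats, since rat 5 was below every control. Tac3 did not pass with only the 12 rats in the fit (limma adjusted p = 0.118). Npy, the precursor of neuropeptide Y, which is known to appear in mossy fibres after seizures, ranged from 6.62 to 7.80 in controls and from 7.55 to 11.52 at day 10. It rose by 1.68 ± 0.44 (limma adjusted p = 0.029), and rat 3 was the highest of the 6. The call for Npy was lost without day 10 rat 4 (adjusted p = 0.0702) and without control rat 2, 4 or 6 (adjusted p = 0.0550, 0.0695 and 0.0722). Fitting only the 12 rats also ended it (limma adjusted p = 0.157). The dense-core granule protein Chgb rose by less, 0.38 ± 0.09, but in 6 of 6 rats beyond the controls.

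Pdyn and Nmb were the members that fell. Pdyn, the precursor of the dynorphins that granule cells release onto their own inputs, had 9.03 to 10.98 in controls (median 9.96) and 6.43 to 9.34 at day 10 (median 8.66). It fell by 1.61 on the log2 scale (standard error 0.43, limma adjusted p = 0.029), and rat 3 was the lowest. The controls themselves fell into a high set (rats 1, 5 and 6) and a low set, with an SD of 0.90. The call for Pdyn was lost without control rat 1, 5 or 6 and without day 10 rat 1 or 3 (adjusted p = 0.0513 to 0.0788), and that for Nmb without control rat 4 or day 10 rat 2 or 3 (adjusted p = 0.0503 to 0.0571). Npy and Pdyn are both granule cell peptides, and they changed in opposite directions. Somatostatin (Sst), an interneuron peptide, was higher by 1.18 ± 0.36 in the fit, which did not pass (adjusted p = 0.0734). The summed signal of 8 interneuron markers was 2646 to 3340 in controls and 2139 to 3604 at day 10, and 0 of the 8 passed in limma (1 at an unadjusted p under 0.05). Its part in the neuropeptide values was not tested.

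**Figure D1:**
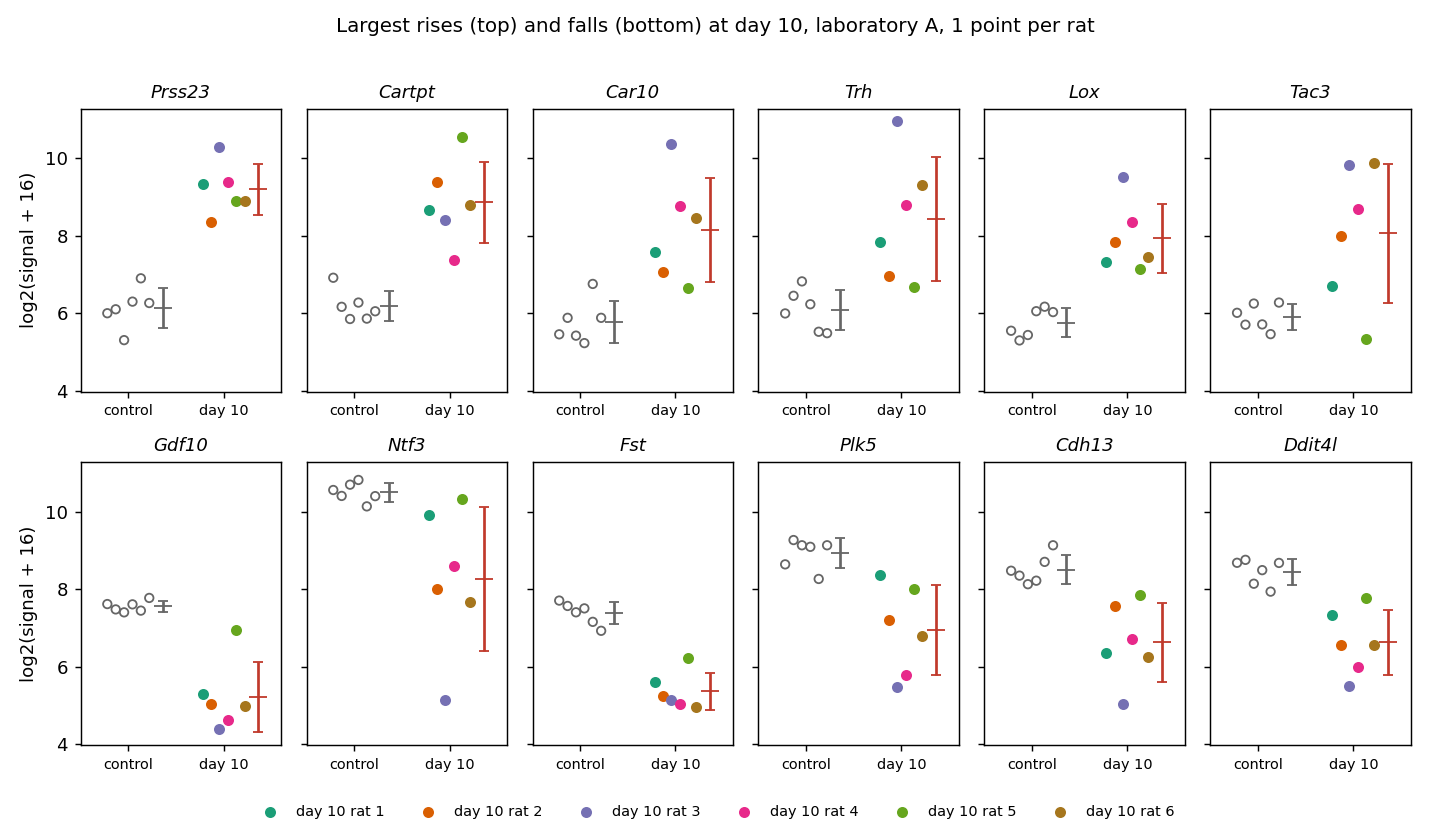
Levels, as log2(signal + 16), of the 6 largest rises (top row) and the 6 largest falls (bottom row) in each of 6 control rats (open circles) and 6 day 10 rats (1 colour per rat), with mean and SD beside each group. Prss23, Cartpt and Lox separate the groups fully, while Tac3 in day 10 rat 5 lies at 5.33, below all controls.

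Among 26 growth factors and partners tested, 6 fell, 1 rose and 19 did not pass (26.9% called). The median change was -0.14, and it was -0.033 without control rat 5. Gdf10, a member of the bone morphogenetic protein family, measured 7.40 to 7.77 in controls (median 7.54) and 4.40 to 6.95 at day 10 (median 5.02). All day 10 rats were below all controls, and the fall of 2.34 (standard error 0.26, limma adjusted p = 7.16e-06) was 5.07-fold. Rat 5 stood apart at 6.95, far above the next day 10 rat at 5.29.

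Ntf3, the neurotrophin NT-3 that adult granule cells are known to make, had the largest day 10 SD among the 15 largest falls. The controls were tight, from 10.14 to 10.82, whereas the day 10 rats ran from 5.14 in rat 3 to 10.33 in rat 5. The SD was 1.86 at day 10 against 0.24 in controls. The fall was 2.23 (standard error 0.57, limma adjusted p = 0.0243), with 5 of 6 rats below all controls. Without day 10 rat 6 or control rat 4 it did not pass (adjusted p = 0.0530 and 0.0543). Nor did it with only the 12 rats in the fit (limma adjusted p = 0.118). Bdnf, the related neurotrophin that firing induces, was the member that rose, by 1.09 ± 0.27 (limma adjusted p = 0.0217). Its levels were 8.35 to 8.88 in controls and 8.51 to 11.09 at day 10, highest in rats 3 and 4. Its second probe set read 1.06. The call was lost without day 10 rat 3 (adjusted p = 0.0618) and without control rat 3 or 4 (adjusted p = 0.0544 and 0.0511).

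Fst, follistatin, which binds activins, was at 6.93 to 7.71 in controls (median 7.45) and 4.95 to 6.23 at day 10 (median 5.20). It fell by 2.01 (standard error 0.26, limma adjusted p = 9.99e-05) in 6 of 6 rats, and its second probe set fell by 2.03. Inhba, which encodes the activin A subunit, was at 10.9 in rat 3 and 11.3 in rat 4 but at 7.3 to 8.3 in the other 4 rats, and it did not pass (adjusted p = 0.219). The binding protein Igfbp5 fell by 1.34 (standard error 0.23, limma adjusted p = 0.00123), the receptor Egfr by 1.28 (standard error 0.18, limma adjusted p = 0.000243) and the receptor Igf1r by 0.54 (standard error 0.11, limma adjusted p = 0.00644). In each of these 3 genes all day 10 rats lay below all controls. A dimmer Igfbp5 probe set read -0.95.

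Genes that build and cut the extracellular matrix changed both ways. Of 46 tested, 3 rose, 3 fell and 40 did not pass (13% called), with a median change of 0.04. Lox, which cross-links collagen and elastin, ranged from 5.30 to 6.17 in controls (median 5.79) and from 7.13 to 9.51 at day 10 (median 7.64). The rise was 2.18 ± 0.32 (4.53-fold, limma adjusted p = 0.000308) with no overlap, and a second Lox probe set gave 1.92. Mmp9, a matrix protease of the synapse, rose by 1.04 ± 0.27 (limma adjusted p = 0.0264) in 6 of 6 rats. It did not pass without control rat 2, 4 or 6 (adjusted p = 0.0566 to 0.0609). Prss23, described above, was the third member that rose. The falls were Gpc3, a heparan sulphate proteoglycan that binds growth factors, by 1.72 (standard error 0.24, limma adjusted p = 0.000181), Col25a1, a membrane collagen of neurons, by 1.50 (standard error 0.27, limma adjusted p = 0.00188) and the syndecan Sdc2 by 0.67. Gpc3 and Col25a1 were lower in 6 of 6 rats than in every control.

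Contacts between neurons were represented by adhesion and guidance lists. Of 23 synaptic adhesion genes, 1 rose and 2 fell (13% called). Car10, a secreted ligand of neurexins despite its name as a carbonic anhydrase, was at 5.23 to 6.76 in controls (median 5.67) and at 6.65 to 10.36 at day 10 (median 8.02). It rose by 2.38 ± 0.41 (limma adjusted p = 0.00123), again highest in rat 3, and rat 5 overlapped the controls. Cdh13, a cadherin without a cytoplasmic tail, went the other way, from 8.13 to 9.13 in controls down to 5.04 to 7.86. Its fall of 1.87 (standard error 0.33, limma adjusted p = 0.00131) was met by -1.78 and -1.96 in its other 2 probe sets. Cdh8 fell by 0.76 (standard error 0.17, limma adjusted p = 0.0114).

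Of 39 genes of axon growth and guidance, 2 rose and 2 fell (10.3% called). Efna5, a repellent ephrin, rose by 1.26 ± 0.23 (limma adjusted p = 0.0018) from a control range of 5.49 to 6.51 to 6.78 to 7.58, with no overlap and a day 10 SD of 0.29. Sema4a rose by 0.73 ± 0.16 (limma adjusted p = 0.00757). Nrp2, a semaphorin receptor of granule cell axons, fell by 1.04 (standard error 0.27, limma adjusted p = 0.0276) and the guidance receptor Robo3 by 1.04 (standard error 0.20, limma adjusted p = 0.00318). Nrp2 was 6.55 in rat 3 and 8.39 or more in the others. Its call was lost without control rat 2 or 4 (adjusted p = 0.0592 and 0.0641).

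Immediate early genes are known to be switched on within minutes of strong firing. Of 26 tested, 3 rose, 0 fell and 23 did not pass (11.5% called). The median change of the list was 0.52, and 24 of 26 values were above 0. One rat carried most of it: in day 10 rat 4, 25 of the 26 genes were above all 6 controls, 25 were the highest of the day 10 rats, and the median gene was 2.36 above the control mean. In the other 5 rats that median was between 0.00 and 0.30. Without rat 4 the list's median change was 0.14, with 3 genes higher and 1 lower. Without rat 5, 5 genes rose, and without control rat 3 or 4 or day 10 rat 3, 1 did.

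Egr2, a zinc finger factor, shows the pattern. It was 5.21 to 5.81 in controls, 4.82 to 6.05 in 5 day 10 rats and 10.83 in rat 4. Nr4a3, a nuclear receptor, was 10.83 in rat 4 and 5.36 to 6.84 in the others. Arc, which acts at dendritic synapses, was 11.20 in rat 4, 8.6 in rat 3 and 6.3 to 6.9 in the other 4, against 6.41 to 7.58 in controls. Fos was 9.70 in rat 4, with a median of 6.84 at day 10 and 6.30 in controls. In the fit none of them passed (Egr2 adjusted p = 0.529, Nr4a3 adjusted p = 0.795, Arc adjusted p = 0.547 and Fos adjusted p = 0.171). Without day 10 rat 4 the change was -0.028 for Egr2 and -0.38 for Nr4a3. Arc read -0.38 without day 10 rats 3 and 4, whereas Fos read 0.63 to 1.27 over all settings run.

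The members that rose were Fosb, Ptgs2 and Bdnf. Fosb, whose truncated product is known to build up over repeated seizures, was 5.64 to 6.41 in controls and 6.64 to 11.25 at day 10. All 6 rats lay above all controls, rat 4 at 11.3 and rat 3 at 8.7, and the rise was 1.80 ± 0.51. Its adjusted p of 0.0442 in limma was near the threshold, and the call was lost without any 1 control rat (adjusted p = 0.0587 to 0.0937) and without day 10 rat 3 (adjusted p = 0.101). Ptgs2, the inducible cyclooxygenase, rose by 1.13 ± 0.24 (limma adjusted p = 0.00722) from 9.03 to 9.75 in controls to 9.69 to 11.71. Rats 3 and 4 were again highest. With only the 12 rats in the fit, Fosb, Ptgs2 and Bdnf lost their calls (limma adjusted p = 0.0962 to 0.223).

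**Figure D2:**
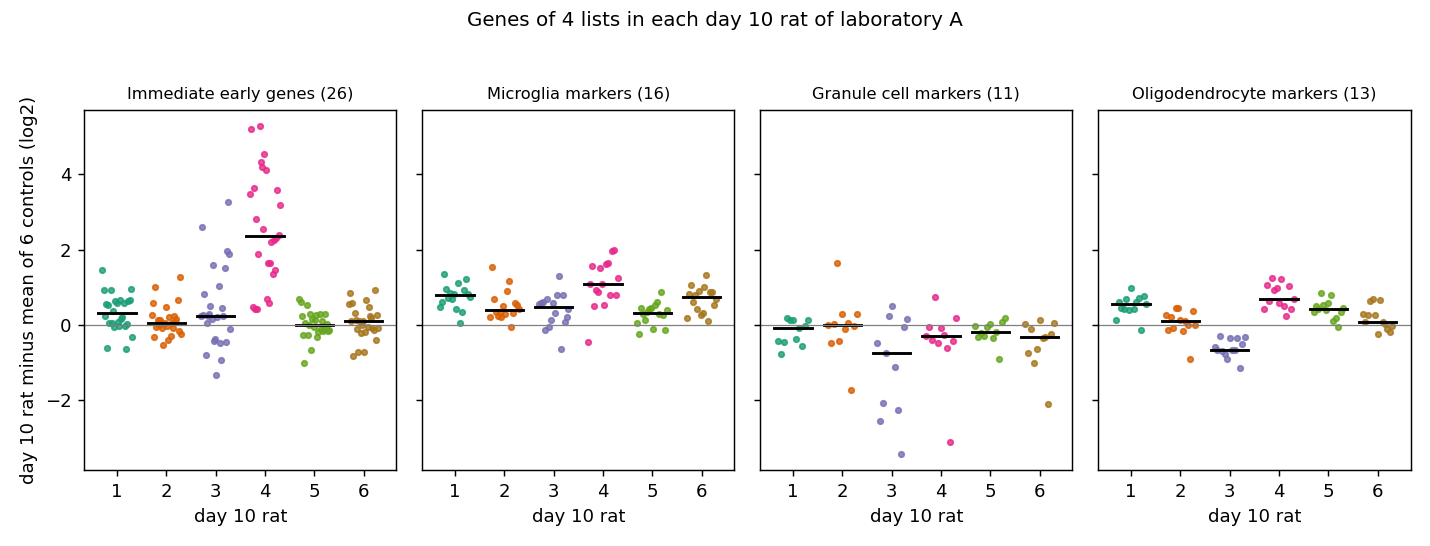
Difference between each day 10 rat and the mean of the 6 controls (log2) for the genes of 4 lists, with 1 point per gene and a black line at the median of each rat. Immediate early genes stand out in rat 4 (median 2.36), and granule cell and oligodendrocyte markers are lowest in rat 3 (medians -0.74 and -0.67).

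Ion channels and receptors set how readily granule cells fire. Of 39 potassium channel genes, 4 fell and 1 rose (12.8% called). Kcnip2, a subunit of the A-type channel, fell by 0.75 (standard error 0.17, limma adjusted p = 0.0116), and the pore subunit Kcnd3 of the same channel type rose by 0.34 ± 0.10 (limma adjusted p = 0.047). A dimmer Kcnip2 probe set read -0.28. Kcnq5, of the M-current, fell by 0.69 (standard error 0.19, limma adjusted p = 0.0379), with rat 3 lowest at 6.78; a dimmer probe set for the gene read 0.21. Kcnj11, the pore of the ATP-sensitive channel, fell by 0.64 (standard error 0.16, limma adjusted p = 0.02) and the Kv1 subunit Kcna2 by 0.58 (standard error 0.14, limma adjusted p = 0.0161). The low-threshold calcium channel Cacna1g rose by 0.67 ± 0.18 (limma adjusted p = 0.0311), the 1 called among 22 sodium, calcium and HCN channel genes (4.55%, near the 3.82% of all genes). Its signal was dim, with a control median of 4.27 where a signal of 0 would read 4. Several of these calls were near the threshold and were lost without 1 rat. For Kcnd3 these were control rats 1, 3, 4 and 5 and day 10 rats 1, 2, 3 and 6 (adjusted p = 0.0501 to 0.116). Kcnq5 lost its call without control rat 1, 2, 4, 5 or 6 and without day 10 rat 2 or 6 (adjusted p = 0.0508 to 0.0846). The same held for Kcnj11 without control rat 3 or 4 (adjusted p = 0.0552 and 0.0579), and for Cacna1g without control rat 3, 4, 5 or 6 and without day 10 rat 3 or 6 (adjusted p = 0.0550 to 0.0740). With only the 12 rats in the fit, Kcnip2, Kcnq5, Kcnj11, Kcna2 and Cacna1g lost their calls (limma adjusted p = 0.0993 to 0.179).

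None of 13 tested genes for GABA receptors and transport and none of 18 glutamate receptor genes passed in limma. At an unadjusted p under 0.05 there were 3 of the former and 1 of the latter. Fxyd7, a brain regulator of the sodium pump, fell by 1.37 (standard error 0.23, limma adjusted p = 0.00116) in 6 of 6 rats and was the 1 called of 8 sodium pump genes (12.5%). The calcium release channel Ryr1 fell by 1.10 (standard error 0.25, limma adjusted p = 0.0106), the 1 called of 26 calcium genes (3.85%, near the 3.82% of all genes). Of 24 receptors for transmitters and modulators, Trhr and the serotonin receptor Htr5b fell (8.33% called). Htr5b fell by 1.10 (standard error 0.17, limma adjusted p = 0.000427) in 6 of 6 rats. The synapsin Syn2 rose in every rat, by 0.64 ± 0.09 (limma adjusted p = 0.000195), from 9.84 to 10.23 in controls to 10.51 to 10.82. It was the 1 called of 26 vesicle genes (3.85%, likewise near the share of all genes), and its dimmer probe sets read 0.06 and 0.28. Bhlhe41, a repressor of the circadian clock, rose by 0.63 ± 0.11 (limma adjusted p = 0.00123), also with no overlap. It was the 1 called of 23 glucocorticoid and clock genes (4.35%, near the share of all genes).

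**Figure D3:**
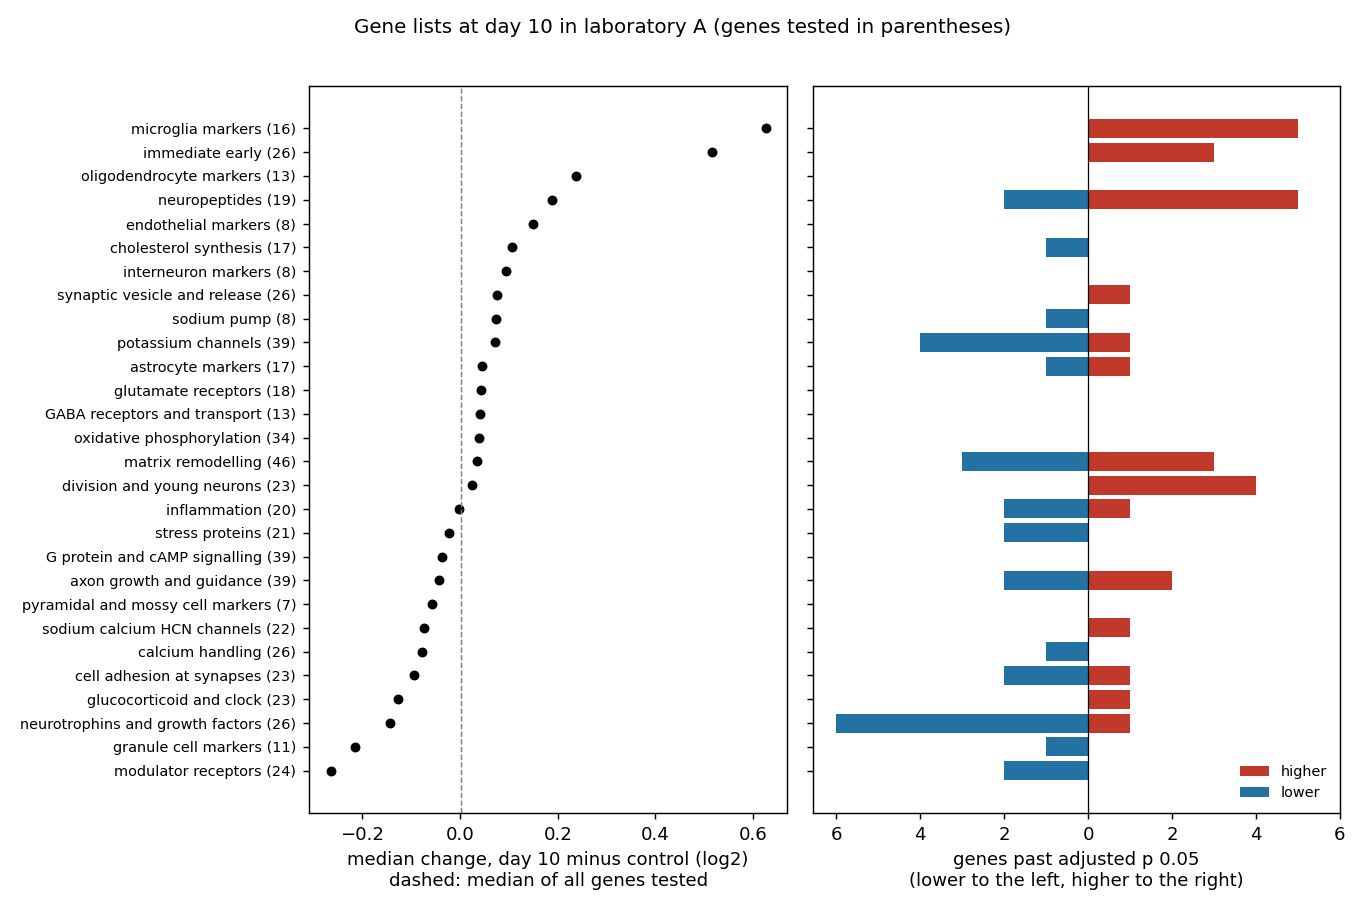
Median change of each of 28 gene lists (left, log2, day 10 minus control, dashed line at the median of all genes) and the number of members past an adjusted p of 0.05 (right, lower to the left and higher to the right). Microglia markers (median 0.63) and immediate early genes (0.52) lie highest, and growth factors hold the most falls (6).

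The identity of the cells was checked on markers. Of 15 granule cell markers, 11 were tested, all 11 lay above the median of the array in all 6 controls, and 1 fell (9.09% called). Prox1, the factor that defines granule cells, was 10.70 to 11.24 in controls and 10.47 to 10.97 at day 10, a difference of -0.21 that did not pass (limma adjusted p = 0.383). Plk5, a kinase enriched in granule cells, was the member that fell, from 8.26 to 9.27 (median 9.11) to 5.48 to 8.36 (median 7.00). Its fall was 1.98 (standard error 0.35, limma adjusted p = 0.00145), lowest in rats 3 and 4. Calbindin (Calb1), which granule cells are known to lose in epilepsy, differed by -0.83 and did not pass (limma adjusted p = 0.131). Calb1 was 8.12 in rat 3, against 9.91 to 10.63 in the other day 10 rats and 10.31 to 10.89 in controls. In rat 3 the median of the 11 markers was 0.74 below the controls and 6 were below their range.

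Markers of young neurons and division gave 4 rises and 0 falls among 23 (17.4% called), with a median change of 0.02. Doublecortin (Dcx), of newborn granule cells, rose by 0.70 ± 0.17 (limma adjusted p = 0.0165). Its day 10 rats were close together at 8.15 to 8.51, while the controls ran from 7.13 to 8.35. Sox11 rose by 0.70 ± 0.18 (limma adjusted p = 0.0268) and Sox4 by 0.60 ± 0.16 (limma adjusted p = 0.029), both factors of immature neurons, and the DNA synthesis enzyme Tyms by 0.46 ± 0.11 (limma adjusted p = 0.015). Dimmer Sox4 probe sets read 0.36 to 0.46. Without control rat 5 and day 10 rat 4, 1 of the list was called, and 2 were without either of them alone. With only the 12 rats in the fit, all 4 lost their calls (limma adjusted p = 0.0649 to 0.133). Left out singly, control rats 2, 4, 5 and 6 and day 10 rats 3 and 4 each ended the call of Sox11 (adjusted p = 0.0511 to 0.0713), and control rats 1 and 5 and day 10 rats 1, 4 and 5 that of Sox4 (adjusted p = 0.0532 to 0.0836).

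Microglia, the immune cells of the brain, can be carried along with laser-cut neurons. Of 16 microglia markers tested, 5 rose, 0 fell and 11 did not pass (31.2% called), and all 16 differences were above 0, with a median of 0.63. The members that rose were the Fc receptor chain Fcer1g (0.99 ± 0.22, limma adjusted p = 0.00861), the complement gene C1qa (0.95 ± 0.21, limma adjusted p = 0.00861), the protease Ctss (0.95 ± 0.26, limma adjusted p = 0.0319), Fcgr2b (0.65 ± 0.16, limma adjusted p = 0.0235) and Ptprc (0.61 ± 0.14, limma adjusted p = 0.0105). In none of the 16 were all day 10 rats above all controls. The summed signal of the list was 502 to 1650 in controls (median 593) and 1038 to 2303 at day 10 (median 1196). Control rat 5 held the 1650 and had the highest level of 14 of the 16 genes among controls, and without it 11 markers rose. Without both control rat 5 and day 10 rat 4, 5 rose, and without day 10 rats 3 and 4, 1 did. Fitting only the 12 rats ended the calls of Fcer1g, C1qa, Ctss and Fcgr2b (limma adjusted p = 0.0531 to 0.142). With 1 rat left out, 9 rose without day 10 rat 5, and 3 did without control rat 2, 4 or 6 or day 10 rat 4. The Ctss call was lost without control rat 2, 3, 4 or 6 and without day 10 rat 1, 4 or 6 (adjusted p = 0.0501 to 0.0921), and the Fcgr2b call without control rat 2, 4 or 6 and without day 10 rat 4 (adjusted p = 0.0593 to 0.0641). In such tissue, more cells of a type and more RNA per cell cannot be told apart.

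Other cell types were represented as follows. The summed signal of 13 oligodendrocyte markers was 3483 to 8190 in controls and 3091 to 9054 at day 10, and that of 8 endothelial markers was 229 to 686 and 231 to 896. None of these markers passed in limma, and 0 had an unadjusted p under 0.05. In both groups the highest sums were in control rat 5 and day 10 rat 4. Of 7 pyramidal and mossy cell markers 0 passed, with 1 at an unadjusted p under 0.05. Of 17 astrocyte markers 1 rose and 1 fell (11.8% called), with a median change of 0.04. Gfap, the filament of reactive astrocytes, rose by 1.27 ± 0.20 (limma adjusted p = 0.000657) from 8.70 to 10.20 in controls to 9.99 to 11.01, and the bicarbonate transporter Slc4a4 fell by 0.51 (standard error 0.13, limma adjusted p = 0.0218). The Slc4a4 call was lost without control rat 1 or 2 and without day 10 rat 3 (adjusted p = 0.0589 to 0.0598). A dimmer Slc4a4 probe set read -0.38.

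Of 20 inflammation genes, 1 rose and 2 fell (15% called). Complement C3 rose by 1.13 ± 0.16 (limma adjusted p = 0.000278) in 6 of 6 rats, from a dim 4.28 to 5.48 up to 5.57 to 6.37. Il6r, the interleukin-6 receptor, had the smallest standard error among the 15 largest falls. It was 6.23 to 6.92 in controls and 4.37 to 5.27 at day 10, a fall of 1.69 (standard error 0.15, limma adjusted p = 2.07e-07). The chemokine Cxcl12, which guides new granule cells, fell by 1.14 (standard error 0.23, limma adjusted p = 0.0046) in 6 of 6 rats, although a dimmer probe set for it read -0.03. The Cxcl12 call was lost with the mean of its probe sets (limma adjusted p = 0.0788). It was also lost with all 48 kainate rats in the fit (limma adjusted p = 0.195). Of 21 stress protein genes 2 fell (9.52% called), among them the heat shock protein Hspa1a, by 0.58 (standard error 0.15, limma adjusted p = 0.029). Its call was lost without control rat 2, 4, 5 or 6 and without day 10 rat 3 or 4 (adjusted p = 0.0550 to 0.0698). Of 17 cholesterol synthesis genes 1 fell (5.88% called, near the 3.82% of all genes). It was the reductase Dhcr7, lower by 0.40 (standard error 0.10, limma adjusted p = 0.025) in 6 of 6 rats. The Dhcr7 call was lost without control rat 1 or day 10 rat 1 (limma adjusted p = 0.0632 and 0.0630).

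Most of the other large changes fell outside the lists. Palmd, a relative of paralemmin, rose by 1.63 ± 0.27 (limma adjusted p = 0.00117), the predicted gene 6330403K07Rikl by 1.57 ± 0.27 (limma adjusted p = 0.00124) and the inactive protease Prss35 by 1.52 ± 0.41 (limma adjusted p = 0.0323). Dimmer Palmd probe sets read 0.81 and 0.62. Prss35 did not pass without control rat 2, 4, 5 or 6 and without day 10 rat 1, 2, 4 or 6 (adjusted p = 0.0505 to 0.0870). Wls, which carries Wnt proteins to the cell surface, rose by 1.48 ± 0.33 (limma adjusted p = 0.00949) and the cell cycle inhibitor Rprm by 1.38 ± 0.29 (limma adjusted p = 0.00757). Serinc2 rose by 1.35 ± 0.19 (limma adjusted p = 0.000209) with no overlap, and the cytokine Tslp by 1.32 ± 0.29 (limma adjusted p = 0.00914).

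Among falls, Ddit4l, an inhibitor of mTOR signalling and the second stress protein gene that fell, went from 7.94 to 8.76 in controls to 5.50 to 7.78, a change of -1.82 (limma adjusted p = 0.000181). The glycosyltransferase B3galt5 fell by 1.59 (limma adjusted p = 0.00757), the neuronal transcription factor Nhlh1 by 1.55 (limma adjusted p = 0.00441) and the protein kinase A inhibitor Pkib by 1.51 (limma adjusted p = 0.00105). A dimmer Pkib probe set read -1.07. Ppl, a desmosome protein, fell by 1.46 (limma adjusted p = 0.0481) with 4 rats below all controls. Its call was lost without control rat 1, 2, 3, 4 or 6 and without day 10 rat 2, 3 or 4 (adjusted p = 0.0547 to 0.126). Hdc, which makes histamine, fell by 1.43 (limma adjusted p = 0.00251), and its day 10 values, 4.36 to 4.98, were near the bottom of the scale.

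The spread between rats was wider at day 10. The median SD per gene was 0.243 at day 10 and 0.193 in controls. In 2059 of the 10821 genes (19%) the SD at day 10 was over 2 times that of controls, and in 519 (4.8%) it was under 0.5 times. Among the 413 changed genes the median SDs were 0.322 and 0.211, and 151 (36.6%) had over 2 times the SD of controls. The 6 largest SDs at day 10 were those of Ttr (2.35), Egr2 (2.21), Nr4a3 (1.92), Arc (1.89), Ntf3 (1.86) and Fosb (1.83). Ttr, transthyretin, is made by the choroid plexus that lies beside the dentate gyrus, and it was as variable in controls (SD 2.40). It reached 11.66 in a control and 11.70 in day 10 rat 4.

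The groups did not overlap in part of the changed genes. Among the 413, the 6 day 10 rats all fell outside the control range in 165 (40%), of which 78 were higher and 87 lower. Over all genes tested, 101 were above in this way (0.933%) and 103 were below (0.952%).

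The rats were not equally far from the controls. Day 10 rat 3 was the highest of the 6 in 73 of the 192 higher genes and the lowest in 137 of the 221 lower genes. Rat 4 was at the end in 61 and 41, and rat 5 in 6 and 5. In rat 3 the median higher gene was 0.81 above the control mean and the median lower gene 1.06 below it. In rat 5 these were 0.34 above and 0.36 below, and 116 of 192 higher and 137 of 221 lower genes lay beyond the control range. The other 4 rats had 165 to 177 of 192 and 193 to 213 of 221 beyond it. On the first principal component of the 24 rats of laboratory A, which held 30.6% of the variance, controls scored -23.9 to -11.6. Rat 5 scored -17.3, within that range, and rat 3 scored 11.9.

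These scores are descriptions, since the genes were called with the same rats. The rats with the largest differences also resembled their group least: the median correlation with the other 5 rats was 0.960 in rat 3, 0.957 in rat 4 and 0.976 to 0.982 in the rest. Among controls it was 0.965 in rat 5 and 0.982 to 0.984 in the others. None of 4 array checks passed in exact permutation tests (6 against 6, two-sided, smallest possible p 0.00216). The median signal was 30.7 in controls and 29.7 at day 10 (exact p = 0.342, adjusted 0.456). The log2 ratio of 3' to 5' signal was 1.52 and 1.16 for Gapdh (exact p = 0.0649, adjusted 0.260) and 3.59 in both groups for beta-actin (exact p = 0.983, adjusted 0.983). The p for the median correlation was 0.147 (same permutation, adjusted 0.294). These correlations were computed within each group and share pairs of rats, so this p is only approximate. Scan or slide batches were not analysed here.

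**Figure D4:**
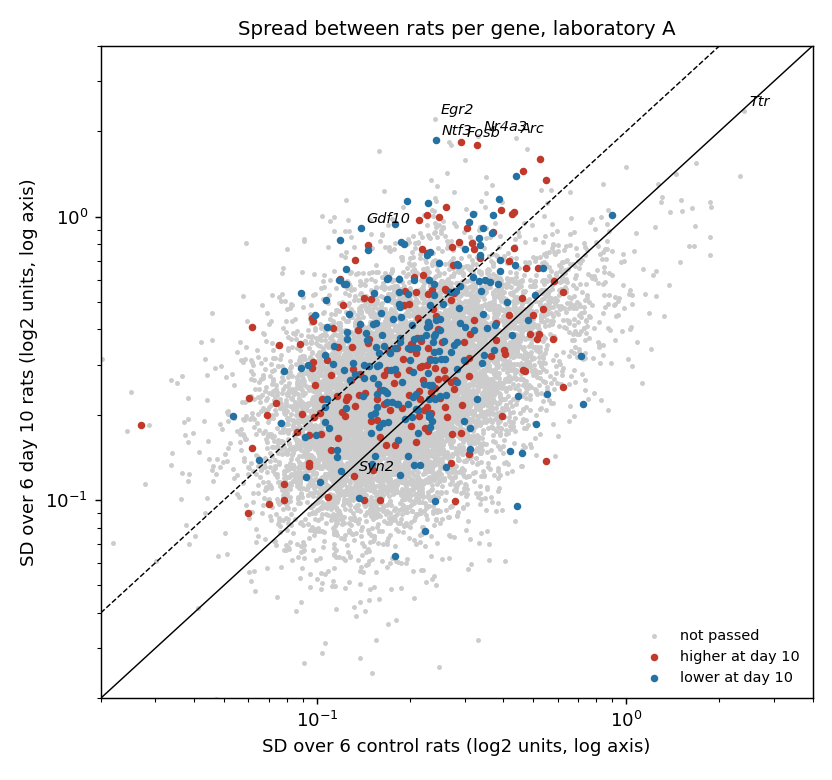
SD of each gene over the 6 day 10 rats against its SD over the 6 controls (log2 units, both axes logarithmic), with genes higher at day 10 in red, genes lower in blue and the rest in grey. The solid line marks equal SDs and the dashed line 2 times the control SD; 2059 genes lie above the dashed line.

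Day 10 was compared with day 1 and day 3 of the same laboratory directly, without the controls. From day 1, 1882 genes differed (17.4%), of which 797 were higher and 1085 lower at day 10. From day 3, 2 genes differed (0.0185%), with 771 at an unadjusted p under 0.05. Day 1 and day 3 share the controls with day 10, so their changes are given only side by side. Prss23 was 4.47 above control at day 1, 2.92 at day 3 and 3.05 at day 10, and day 10 was below day 1 by 1.42 (limma adjusted p = 0.000308). Lox stood at 4.50, 2.10 and 2.18 and Trh at 5.13, 1.92 and 2.34. Day 10 was below day 1 for both, with limma adjusted p of 1.7e-05 for Lox and 0.00011 for Trh. For these 3 genes day 10 and day 3 differed by 0.42 or less.

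Cartpt followed another course. It was -0.45 from control at day 1, 1.20 at day 3 and 2.67 at day 10, and it was higher at day 10 than at day 1 by 3.12 ± 0.44 (limma adjusted p = 1.88e-05). Its difference from day 3 was 1.47 and did not pass (adjusted p = 0.344). Fst was -0.97, -1.33 and -2.01 from control at the 3 times, and day 10 was lower than day 1 by 1.04 (limma adjusted p = 0.0071). C3 read 0.32, 0.54 and 1.13, with day 10 above day 1 by 0.80 (limma adjusted p = 0.0011). Plk5 went the other way, from -3.62 at day 1 to -1.98 at day 10 (difference 1.63, limma adjusted p = 0.0019).

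Of the 6 genes with the smallest p between day 10 and day 1, 5 did not pass against control at day 10. Hspb1, a small heat shock protein, was 4.50 above control at day 1 and 0.42 at day 10. Klhl40 was at 2.93 and 0.25, Mfap4 at 3.24 and 0.51 and Pepd at 1.52 and 0.12. Dpy19l3 was -1.34 and 0.17 from control. Rreb1, a zinc finger repressor, was still lower at day 10 (-3.04 at day 1, -0.65 at day 10, limma adjusted p = 0.0274). Rreb1 lost its call against control without control rat 1, 2, 3 or 4 and without day 10 rat 3, 4 or 6 (adjusted p = 0.0503 to 0.0737). Of the 413 genes changed at day 10, 133 (32.2%) differed between day 10 and day 1, and 96 of them were nearer to control at day 10. The other 37 had moved since day 1 in the direction of their day 10 change, whatever their distance from control at day 1.

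The 2 genes that differed from day 3 were both lower at day 10. Tspan18, a membrane organiser, was -0.16 from control at day 3 and -1.20 at day 10 (difference -1.04, limma adjusted p = 0.037). Fcrl2, an Fc receptor-like gene with a control median of 4.93, was 1.47 above control at day 3 and -0.38 at day 10 (difference -1.85, limma adjusted p = 0.00016). The other 4 of the 6 smallest p did not pass: Il6r had an adjusted p of 0.0877, and Kank2 (difference -1.15), the growth factor Tgfa (-0.89) and the synaptic vesicle protein Syngr3 (0.44) had 0.0893 each in limma. Without day 10 rat 5, 13 genes differed from day 3, and without any 1 of the day 3 rats or of day 10 rats 4 and 6, 1 did.

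**Figure D5:**
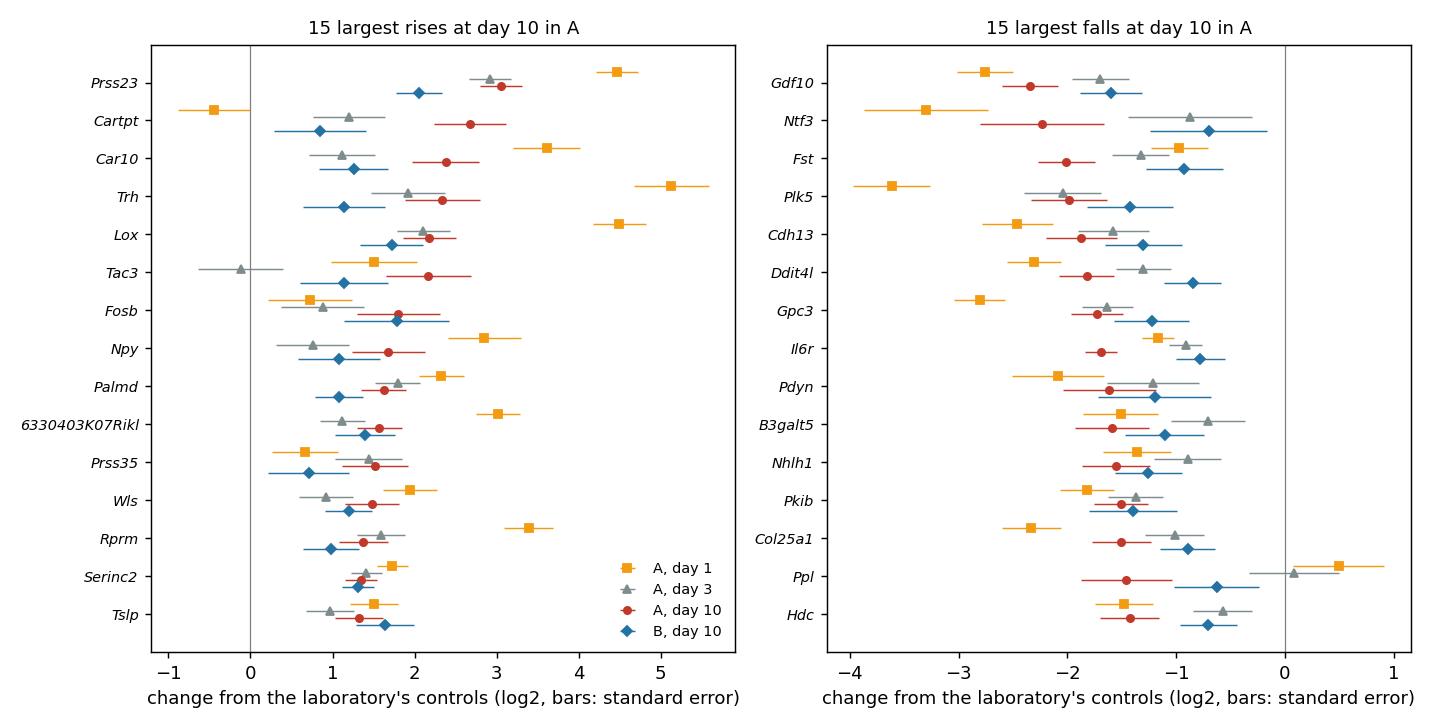
Change from the laboratory's own controls (log2, bars show the standard error of the fit) for the 15 largest rises (left) and falls (right) at day 10 in laboratory A, at day 1, day 3 and day 10 in A and at day 10 in B. The points of A share its 6 controls. Prss23 reads 4.47, 2.92 and 3.05 in A and 2.05 in B, while Cartpt is -0.45 at day 1 and 2.67 at day 10.

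Laboratory B has its own rats and controls, so its day 10 values are separate measurements, although dose, supplier and the length of SE differ together and cannot be told apart. In a fit of all 48 kainate rats, 222 genes passed for laboratory A and 96 for laboratory B. Of the 413 genes changed in A, 390 (94.4%) had the same sign in B, where 64.4% of all genes did. An unadjusted p under 0.05 in B with the same sign was reached by 246 (59.6%), against 13.9% of all genes at that p in either direction. None of the 413 was opposite at that p, and 62 passed the adjusted threshold in B.

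The difference between the laboratories' changes was tested itself. In limma 0 of 10821 genes (0%) passed, and 330 had an unadjusted p under 0.05. Serinc2 rose by 1.31 ± 0.20 in B against 1.35 in A, Fxyd7 fell by 1.33 against 1.37, and Fosb read 1.78 ± 0.64 against 1.80. The 15 largest rises and 15 largest falls were chosen by their size in A, which favours smaller values in B. All 30 had the same sign in B, 29 with a smaller change, while Tslp rose more there (1.63 against 1.32). Outside these 30, Igfbp5 read -1.65 in B against -1.34 in A. Prss23 rose by 2.05 ± 0.27 in B, and its difference, A minus B, was 1.00 (95% interval 0.21 to 1.78). Cartpt read 0.85 ± 0.56 in B (difference 1.83, interval 0.23 to 3.42), Ntf3 -0.70 ± 0.54 and Il6r -0.78 ± 0.23. None of these differences passed adjustment over all genes.

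The 6 genes with the smallest p for a difference were Atg7, Nt5e, Entpd2, Zfp597, Cacna1g and Ints11, each with an adjusted p of 0.962 in limma. Atg7, an autophagy enzyme, fell by 0.68 in A (limma adjusted p = 0.00196) and read 0.06 in B, and its second probe set read -0.59 in A. Nt5e, which makes adenosine outside the cell, fell by 0.88 in A (limma adjusted p = 0.0284) and read 0.27 in B. The Nt5e call in A was lost without control rat 1, 2, 4 or 6 and without day 10 rat 2, 3, 4 or 6 (adjusted p = 0.0502 to 0.0789). Entpd2 passed in A without day 10 rat 3 (limma adjusted p = 0.0234). Cacna1g was 0.67 in A and -0.35 in B. Among the activity genes, Ptgs2 was 1.65 ± 0.33 in B and Bdnf 1.32 ± 0.36, while Fos was -0.10 ± 0.53 there.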

How the data were processed

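The authors deposited 1 linear intensity for each probe set and array, made with MAS5 (version unstated), per the submitters' processing notes. Each array had a trimmed mean of 150.04 to 150.06 (2% left out at each end). The aligner of probes to genes is not given in the sources used here. Among 31099 probe sets (57 for array control), 20826 carried 1 gene symbol and were eligible, while 436 with several and 9780 without were not. Eligible sets had to exceed their array's median in 6 or more of the 164 rats, and the brightest set stood for its gene, which left 10821 genes (2698 with several probe sets). A value of 16 was added before log2, so changes of dim genes are understated. The 2 arrays of 1 day 3 rat were averaged.

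The main fit was limma 3.58.1 in R 4.3.3 with 1 mean per group over the 24 rats of laboratory A. A gene was called changed at an adjusted p under 0.05 (Benjamini-Hochberg, over all 10821). The difference between laboratories came from a fit of 48 rats. The code was tested on simulated data. Changes are fitted differences with the standard errors of their fit, which pool the spread of all groups in it. SDs are over rats, and the number of arrays limits the precision.

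Members and lists were chosen with earlier results of these data known. Named genes are the 15 largest rises and falls (passing over provisional symbols), up to 4 changed members of each of 28 lists, 14 fixed genes, the 6 smallest p for each difference between times or laboratories and the 6 largest day 10 SDs. Chgb, Nmb, Egfr, Igf1r, Mmp9, Sdc2, Kcnd3, Ptprc, Sst, Inhba, Plk2 and the genes outside the lists in the closing section were named after their values were seen. Those that passed were also refitted with each rat left out. Promoter sequences are from RefSeq (GRCr8). The deposited files give no genome positions, so positions are given only for the RefSeq promoters. Rat numbers were not used as pairs: after group means were removed, control and day 10 rats of the same number correlated at -0.18 to 0.12.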

Additional observations from a re-analysis of the deposited data

Results flagged for a closer look

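Single rats stood far from the other 5 of their group in 12 of 172 groups of values tested for the named genes. Chance alone flags about 1 in 20 for genes not chosen by their values. Many of these genes were named for their change or for a large day 10 SD in the same rats. The number flagged therefore cannot be judged against that rate. In day 10 rat 3, Wls was higher (9.63, next 7.56), while Kcnq5 (6.78), Nrp2 (6.55) and Calb1 (8.12) were lower than in the rest. In day 10 rat 4, Egr2 (10.83), Nr4a3 (10.83), Ttr (11.70) and Ctss (9.89) were higher. Day 10 rat 5 had the highest Gdf10 (6.95) and the lowest Gfap (9.99). Among controls, Fcgr2b was 4.99 in rat 5 and Rreb1 was 9.22 in rat 6.

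The summed signal of microglia markers was 1650 in control rat 5 and 2303 in day 10 rat 4, that of endothelial markers was 896 in day 10 rat 4, and that of interneuron markers was 2139 in day 10 rat 2. The median correlation with the other controls was 0.965 in control rat 5.

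Between times within laboratory A, 1882 genes differed between day 10 and day 1 and 2 between day 10 and day 3, tested directly.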

How the results depend on the processing

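The 413 changed genes became 394 to 445 with 1 or 64 added before log2, no filter, a filter on the 12 rats, the mean of a gene's probe sets or quantile normalization, 376 with array weights and 456 with a mean-variance trend. With only the 12 rats in the fit they were 124 (57 higher, 67 lower; 121 shared with the 413), and with all 48 kainate rats 222 (86 higher, 136 lower; 217 shared). Leaving out each rat in turn gave 304 to 696 changed (138 to 335 higher, 166 to 361 lower); the lowest was without control rat 4 and the highest without day 10 rat 5. Differences from day 1 then numbered 1451 to 2311, from day 3 1 to 13, and between laboratories 0 in each case. Against day 3, 4 genes differed with 64 added and 1 with no filter. By settings chosen after seeing the data, 210 changed without day 10 rats 3 and 4 (106 higher, 104 lower), and 297 without control rat 5 and day 10 rat 4 (142 lower). With the rat number as a replicate block 497 changed (397 shared), 2154 differed from day 1 and 5 differed from day 3. The correlations of -0.18 to 0.12 cover only control and day 10 rats of the same number. Whether rats of the same number were processed together was not tested.

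Of the 86 named genes, 41 kept their side of the threshold and their sign under every setting run. Not all of these are calls that held. Fos, Prox1, Calb1, Ints11, Klhl40, Dpy19l3, Pepd, Hspb1, Mfap4, Fcrl2, Tgfa and Syngr3 are among the 41 and passed under no setting. The rest of the 41 kept their calls. Beyond the losses given above, fitting only the 12 rats ended the calls of Prss35, Wls, Tslp, Pdyn, B3galt5, Nhlh1, Ppl and Slc4a4. It also ended those of Ryr1, Nrp2, Sema4a, Cdh8, Hspa1a, Dhcr7, Trhr, Nt5e and Rreb1 (limma adjusted p = 0.0511 to 0.207 for all of these). With all 48 kainate rats in the fit, Fosb, Npy, Prss35, Pdyn, Slc4a4, Fcgr2b, Ptgs2, Bdnf and Kcnj11 lost their calls. So did Kcna2, Cacna1g, Cxcl12, Hspa1a, Sox11, Tyms, Dhcr7, Trhr and Rreb1 (limma adjusted p = 0.0514 to 0.249 for all of these). Signs reversed only in genes that had not passed. With array weights Kank2 read 0.010 and Nr4a3 -0.013. Without control rat 5 and day 10 rat 4, Arc read -0.033, Egr2 -0.095 and Nr4a3 -0.36, and without day 10 rats 3 and 4, Arc -0.38, Kank2 0.17, Egr2 -0.16 and Nr4a3 -0.14. With 1 rat left out in turn, Ttr ranged from -1.69 to 0.052, Zfp597 from -0.017 to 0.116, Kank2 from -0.32 to 0.053, Egr2 from -0.028 to 1.17 and Nr4a3 from -0.38 to 0.71. Signals near the added 16 limit dim genes: the change of Fcgr2b was 2.17 with 1 added and 0.22 with 64.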

Other observations

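Other changed genes lay outside the lists. The Wnt ligand Wnt10a rose by 1.26 (limma adjusted p = 0.00143) and Wnt4 fell by 1.37 (limma adjusted p = 0.00251). Mc4r, the melanocortin receptor, fell by 1.25 (limma adjusted p = 0.000191) and the lysophosphatidic acid receptor Lpar1 rose by 1.15 (limma adjusted p = 0.00104). Gadd45a, a stress-responsive growth inhibitor, rose by 1.15 (limma adjusted p = 0.00123) and the complement protease C1s by 1.13 (limma adjusted p = 0.000837). All 6 passed with any 1 control or day 10 rat left out. These were chosen after their values were seen.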
